A study of Mus musculus with 2 samples.

Results

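The genes described here are those whose RNA encodes the core proteins, polymerases, sulfotransferases and sulfatases of heparan sulfate, together with the sulfotransferases and chain starters of chondroitin sulfate and related sugars. Members were chosen by symbol alone, as the glypicans Gpc1 to Gpc6, the syndecans Sdc1 to Sdc4, Ext1 and Ext2, Extl1 to Extl3, the Ndst, Glce, Hs2st1, Hs6st and Hs3st genes, Sulf1 and Sulf2, the Chst genes, Csgalnact1, Csgalnact2 and Ust. The rule found 50 of 32285 genes, and the rule uses no measured value. The gene set itself was chosen with earlier results of these data known. The nuclei came from wild type male C57BL/6J mice aged 10 to 12 weeks, were taken from microdissected hypothalamus, were sorted for high NeuN, a protein of neuronal nuclei, and were captured with 10x Genomics Chromium v3 chemistry. The labels name the tissue as ARC, the arcuate nucleus, and give 1 gene expression library with its hashtag library, made from pooled animals with no treatment. A hashtag is a barcoded antibody that marks the nuclei of 1 preparation before pooling. The matrix itself holds 2 hashtags, which its feature list names ARC and PVH (paraventricular hypothalamus), although the sample labels mention the ARC alone. The hashtags do not identify mice, so there was 1 sample without replicates, no test was made across nuclei, and each interval below covers counting error only.

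Heparan sulfate is a long sugar chain attached to a few core proteins at the cell surface. Glypicans are held on the membrane by a lipid anchor and syndecans span it, and both carry chains that bind growth factors, morphogens, adhesion molecules and synaptic organisers. The chain is polymerised by the exostosins, then N-deacetylated and N-sulfated by the Ndst enzymes, epimerised by Glce, and O-sulfated in turn by the 2-O-, 6-O- and 3-O-sulfotransferases. The Sulf enzymes remove 6-O-sulfates outside the cell. In the hypothalamus the syndecan Sdc3 is known from work on feeding, where it acts on melanocortin signalling.

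After the filters, 6841 nuclei carried a single hashtag, 3767 of them ARC and 3074 PVH, with medians of 4827 and 5039 unique molecular identifiers (UMIs, each 1 captured RNA molecule) and a range of 997 to 11970 per nucleus. A level is the UMI sum of a gene in a group of nuclei scaled to 1000000 UMIs over all genes (CPM), with its exact 95% Poisson interval in parentheses. Clustering without the member genes gave 22 clusters, of which 20 were neuronal with 6776 nuclei, 116 to 773 in each. Class names rest on fixed markers and end in "-like". Those used are AGRP-like (cluster 1), dopaminergic-like (5), SIM1-like (7, 8, 18 and 19), POMC-like (9), VMH-like (11), KNDy-like (13) and GHRH-like (14). The KNDy-like name is tentative throughout, because its first marker, Kiss1, only just reached the 3 UMIs needed of a marker. Cluster 3 also met the markers of the suprachiasmatic nucleus, but Lhx8, Lef1 and Onecut3 led it, so it is called by its number, as are the unnamed clusters. Defining cells of the labelled tissue were present, since the ARC hashtag held 763 of the 773 AGRP-like and 281 of the 286 POMC-like nuclei, while 886 of the 957 SIM1-like nuclei, a class of the paraventricular hypothalamus, carried the PVH hashtag. Agrp UMIs were found in every neuron cluster, at 108 to 171 CPM in the 19 other neuron clusters against 280.2 in cluster 1, and the part of free RNA in this and in low member levels was not tested.

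Across neuron classes, most glypican and sulfotransferase genes with enough UMIs passed a 2-fold threshold in at least 1 cluster, against 33.6% of all genes. Of the chain elongation genes 1 of 4 passed, too few genes to set against that share. A member was counted as higher or lower in a cluster when its CPM was at least 2-fold that of all other neurons, or at least 2-fold under it, with at least 10 UMIs expected there. Enough UMIs for this were present for 36 of the 50 members. Of these, 21 were higher in at least 1 cluster, against 15.9% of the 14434 genes tested, 23 were lower in at least 1, against 30.5%, and 25 were either, against 33.6%. Genes with enough UMIs in more clusters had more chances to pass the rule. In cluster 20, for example, 28 of the 36 members and 8661 of the 14434 genes had enough, and the part of this was not tested. Long genes passed this rule more often than short ones. Among genes of at least 150 kb, 15 of 16 members passed against 62.9% of all genes, among those of 50 to 150 kb 7 of 10 members against 37.1%, and among those under 50 kb 3 of 10 against 28.1%. The 25 members that passed had a median length of 210.4 kb and the 11 that did not had 31.7 kb, so length moved with the result and its part was not tested.

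**Figure D1:**
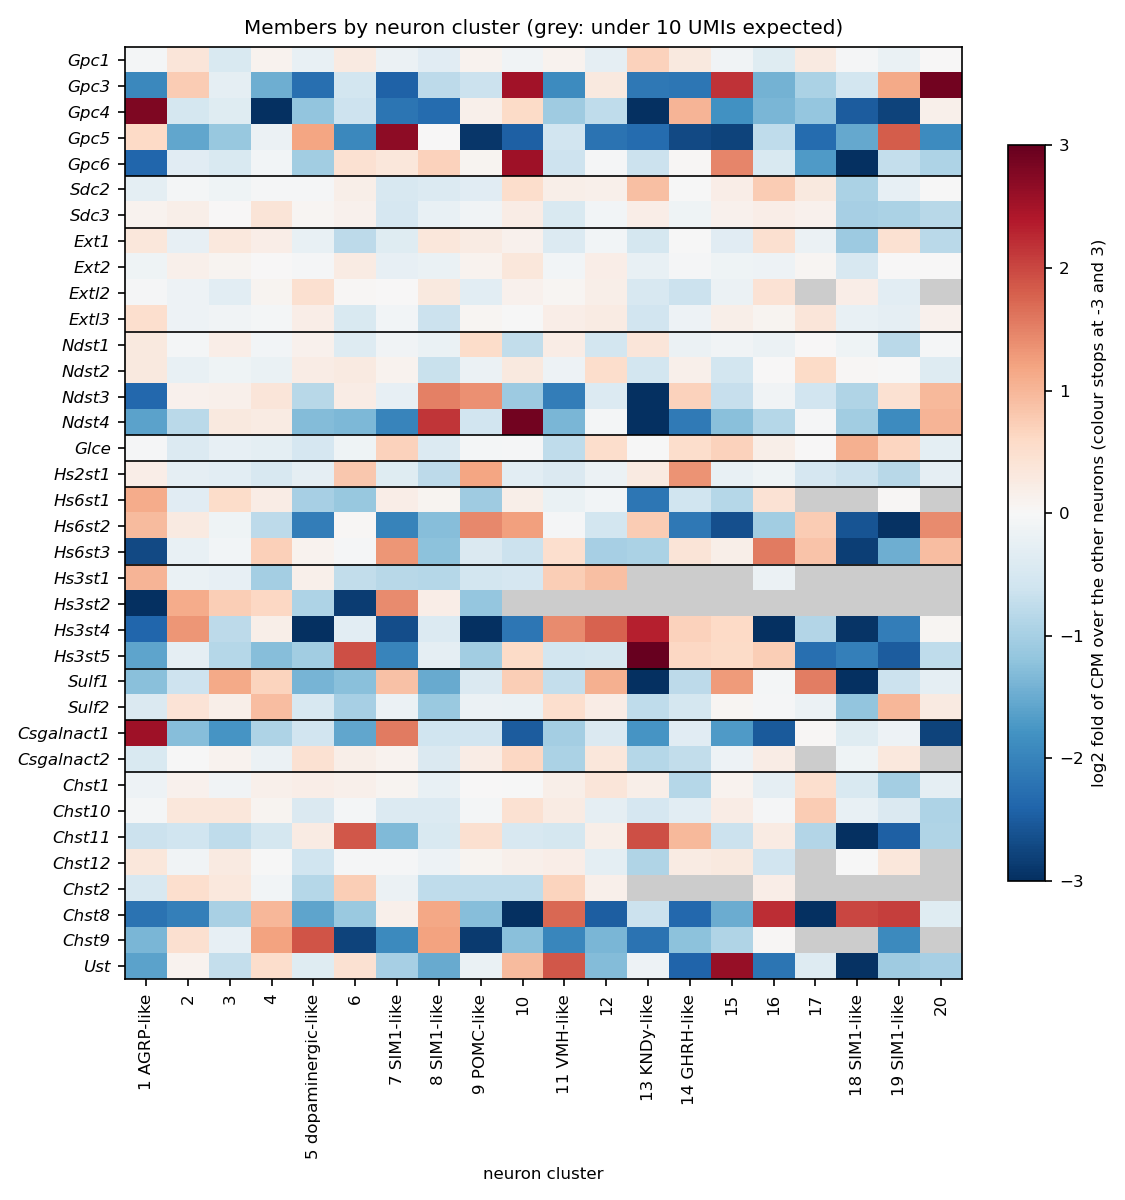
Log2 fold of each member's CPM in a neuron cluster over all other neurons, with members as rows in order of role, clusters as columns and grey where under 10 UMIs were expected. Red is higher and blue lower in the cluster; Gpc4 in the AGRP-like cluster, Hs3st5 in the KNDy-like cluster and Ndst4 in cluster 10 stand out, while the rows of Ext1, Ext2, Extl2, Extl3, Ndst1 and Ndst2 stay pale.

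By role, 4 of 5 glypicans passed in at least 1 cluster, 2 of 4 Ndst genes, 3 of 3 6-O-sulfotransferases, 4 of 4 3-O-sulfotransferases, both Sulf genes, 1 of 2 chondroitin chain starters and 5 of 8 Chst genes and Ust together. Of the chain elongation genes 1 of 4 passed and of the syndecans 1 of 2, each only as lower in SIM1-like cluster 18. Over all genes 33.6% passed in either direction, and counts out of 4 or fewer genes are too small to set against that share. The ratio of the highest to the lowest cluster was 1.71 for Ext2 and 2.93 for Ext1, against 64.8 for Ndst4 and 49.4 for Hs3st4. Such a ratio grows with counting noise in genes of few UMIs and is given as a description.

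**Figure D2:**
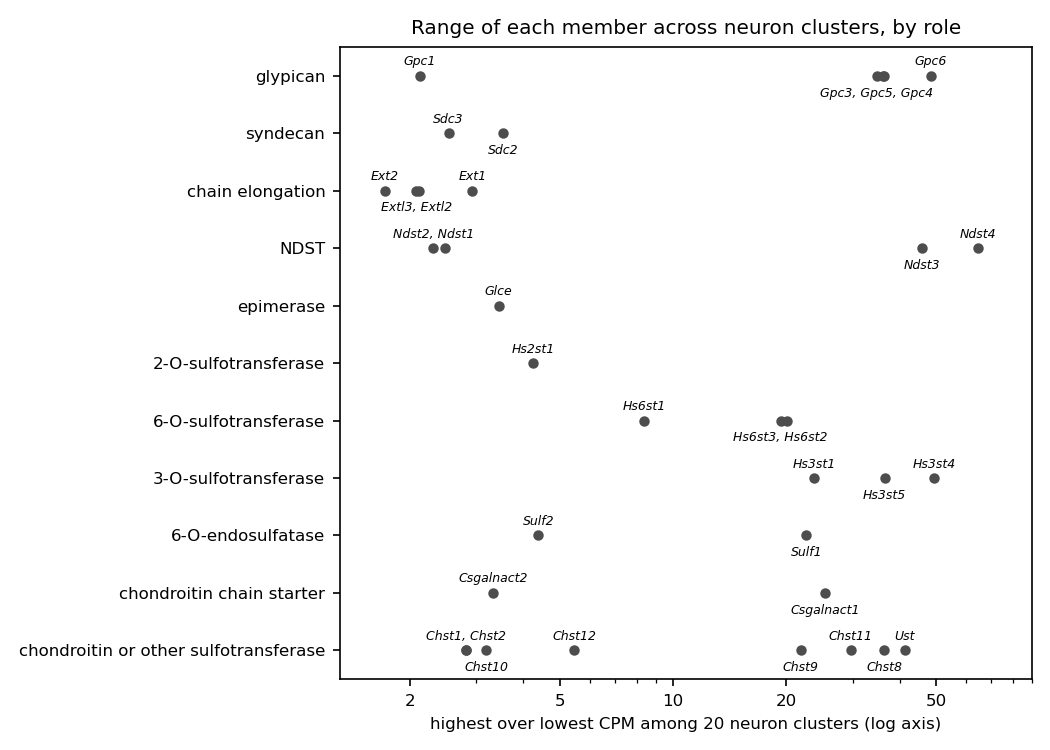
Highest over lowest CPM among the 20 neuron clusters (log axis) for members with at least 10 expected UMIs in a cluster, 1 point per gene, grouped by role. Chain elongation genes lie between 1.71 and 2.93, whereas Gpc3 to Gpc6, Ndst3 and Ndst4 lie above 30; Hs3st2 is not drawn because its lowest cluster held 0 UMIs.

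Each of Gpc3 to Gpc6 was highest in a different neuron cluster. Gpc4, a glypican known as an astrocyte signal for synapse formation and also made by neurons, was at 125 CPM (114 to 136) in the AGRP-like cluster, 6.92-fold (6.13 to 7.80) that of the other neurons. The next highest were the GHRH-like cluster at 59.9 (46.3 to 76.2) CPM and cluster 10 at 44.8 (34.0 to 57.9), whose intervals overlapped each other and not that of the AGRP-like cluster. The median over the 20 clusters was 14.4 CPM, the lowest level was 3.44 (1.65 to 6.32) in cluster 4, and 11 clusters counted as lower. The AGRP-like cluster held 47.7% of all neuronal Gpc4 UMIs. A Gpc4 UMI was found in 326 of its 773 nuclei (42.2%) against 789 of all 6776 neurons (11.6%), and after each nucleus was thinned to 1000 UMIs the shares were 12.03% (9.82 to 14.5) and 2.76% (2.38 to 3.18). In the KNDy-like cluster, among the lowest for Gpc4, 4 of 217 nuclei (1.84%) held a UMI, any free RNA included. The nuclei of these classes held medians of 4585 and 5028 UMIs of all genes.

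Gpc4 lies on the X chromosome at chrX:52053021-52165252 (GRCm38, minus strand, GENCODE M21), next to Gpc3 with a gap of 107 kb and no protein-coding gene between them. Its promoter is shown because no other glypican had so large a share of its UMIs in a named class. The 250 bases before its start in RefSeq (GRCm38.p6, chrX:52164924-52165173, minus strand) are given 5′ to 3′ and hold 18 CpG, against a median of 6 over all 32851 promoters in that table and of 17 over those of the members. By the GENCODE coordinates, whose start lies further upstream, this stretch is inside the gene. Neither TATAAA nor CCAAT, searched on both strands, was found in it.
Gpc4: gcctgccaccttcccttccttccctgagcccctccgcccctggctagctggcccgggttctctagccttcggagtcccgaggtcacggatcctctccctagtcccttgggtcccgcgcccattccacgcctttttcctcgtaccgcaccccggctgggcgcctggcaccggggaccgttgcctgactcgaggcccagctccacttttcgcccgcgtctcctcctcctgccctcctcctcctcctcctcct

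Gpc3, a glypican that binds hedgehog and Wnt ligands, showed another distribution from its neighbour. It was at 245 CPM (206 to 289) in cluster 20, 175 (153 to 199.6) in cluster 10 and 148 (125 to 174) in cluster 15, with 77.3 (60.05 to 98.0) in SIM1-like cluster 19 and a median of 22.4 over all 20. The AGRP-like cluster, highest for Gpc4, was at 10.3 CPM, and the lowest level was 7.02 in SIM1-like cluster 7. Gm14582 and A630012P03Rik, a pair of genes that overlap Gpc3 on the opposite strand and were looked at after their values were seen, were also highest in cluster 20, at 128 and 250.1 CPM. They stood at 100.4 and 165 CPM in cluster 10.

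Gpc5 and Gpc6 are adjacent on chromosome 14, at chr14:115092215-116525179 and chr14:116925315-117976544 on the plus strand, with 400.1 kb and no protein-coding gene between them. Gpc5 was at 2325 CPM (2259 to 2393) in SIM1-like cluster 7, 6.48-fold (6.26 to 6.70) that of the other neurons, and at 1546 (1465 to 1631) in SIM1-like cluster 19 and 983 (944 to 1022) in the dopaminergic-like cluster. The median cluster was at 169 CPM and the lowest, the POMC-like, at 64.3 (52.7 to 77.7). Gm20713, which overlaps Gpc5 on the opposite strand and was looked at after its values were seen, was also highest in cluster 7, at 584 CPM. It stood at 359 CPM in cluster 19 and 224 in the dopaminergic-like cluster. Gpc6 was instead highest in cluster 10 at 2531 CPM (2445 to 2619), 5.79-fold (5.57 to 6.01), followed by cluster 15 at 1357 (1287 to 1431). Its median was 400.4 CPM and its lowest level 52.2 (37.0 to 71.7) in SIM1-like cluster 18, with 109 (98.8 to 119) in the AGRP-like cluster. In cluster 10, led by Htr3b and Vgll3, 266 of 269 nuclei held a Gpc6 UMI, against 16 of 120 in SIM1-like cluster 18, and the median was 11 UMIs per nucleus, and in cluster 7 the median Gpc5 count was 10.

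Gpc5 was unevenly spread within the dopaminergic-like cluster, as it was within several others. A Gpc5 UMI was found in 211 of its 508 nuclei, the median nucleus held 0, and 58.6% of the UMIs lay in the 10% of nuclei with the most, against 28.6% in cluster 7. When the ARC nuclei were clustered alone, again without member genes, 183 and 131 of the 319 ARC nuclei of the dopaminergic-like cluster fell into separate clusters. Gpc5 was at 35.2 CPM (24.2 to 49.4) in the first group and 2424 CPM (2307 to 2545) in the second. All 5 dopaminergic markers were lower in the second group. Slc6a3, the dopamine transporter, was at 55.4 and 2.998 CPM in the same order, Th, which makes the dopamine precursor, at 73.5 and 20.99, Ddc at 223 and 61.5, Slc18a2 at 141 and 105 and Lhx1 at 109.7 and 76.5. Among these ARC nuclei, Gpc5 was thus low in those with the higher levels of the dopamine genes. The PVH nuclei of the cluster were not split in this way. Gpc1, the remaining glypican with enough UMIs, ranged only from 22.4 CPM in cluster 3 to 47.4 in the KNDy-like cluster, and the intervals of its highest and second cluster overlapped.

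**Figure D3:**
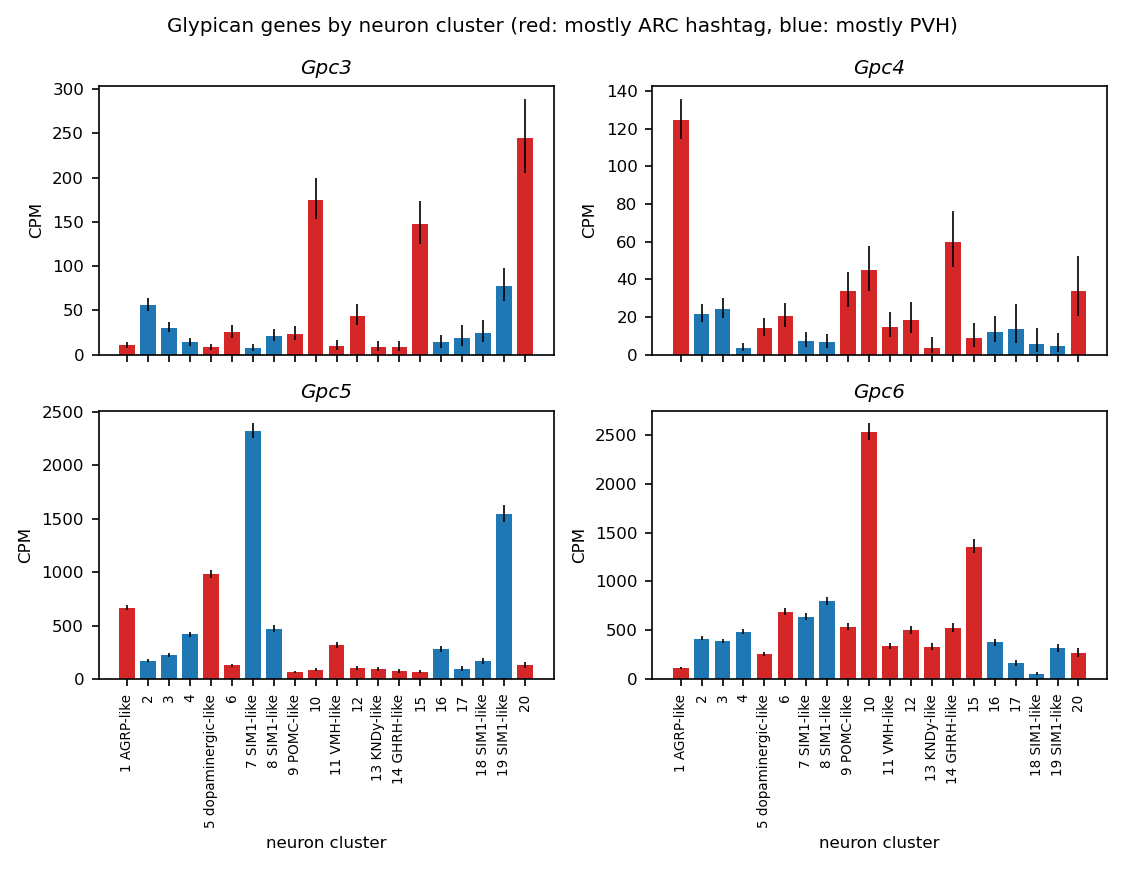
CPM of Gpc3, Gpc4, Gpc5 and Gpc6 in the 20 neuron clusters, with exact 95% Poisson intervals as bars and colour by the hashtag that most nuclei of the cluster carry. Each gene peaks in other clusters: Gpc4 in the AGRP-like (125 CPM), Gpc5 in SIM1-like cluster 7 (2325 CPM), Gpc6 in cluster 10 (2531 CPM) and Gpc3 in cluster 20 (245 CPM).

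Syndecans and chain elongation genes varied over a narrower range. Sdc2 was highest in the KNDy-like cluster at 131 CPM (110.2 to 154) with cluster 16 at 119 (99.5 to 140.1), and lowest in cluster 18 at 37.1. Sdc3, a syndecan of neurons, lay between 10.995 CPM in cluster 18 and 27.8 in cluster 4 and was at 23.1 (18.8 to 28.2) in the AGRP-like cluster, 1.07-fold that of the other neurons. Ext1 and Ext2, which form the polymerase, had medians of 145 and 71.7 CPM. Ext1 counted as lower in cluster 18, at 74.2 CPM, and Ext2 passed in no cluster, nor did Extl2 and Extl3, which act at the start of the chain. Extl3 reached 88.5 CPM in the AGRP-like cluster, 1.42-fold that of the other neurons and short of the threshold.

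The N-deacetylase/N-sulfotransferases fell into a flat pair and a variable pair. Ndst1 and Ndst2, the widely expressed forms, ranged from 14.8 to 36.7 and from 14.9 to 34.2 CPM. Ndst3 and Ndst4, the forms known from brain, lie on opposite strands of chromosome 3 with 3 protein-coding genes between them, and ranged from 3.72 to 170.4 and from 6.502 to 422 CPM, with medians of 58.8 and 36.6. Ndst4 was highest in cluster 10 at 422 CPM (387 to 458), 7.43-fold (6.75 to 8.18), and was among the 10 leading genes of that cluster. SIM1-like cluster 8 followed at 259.6 (238 to 283) and cluster 20 at 140.1 (111 to 175). Ndst3 was highest in SIM1-like cluster 8 at 170.4 (153 to 189) and in the POMC-like cluster at 159 (141 to 179.7), whose intervals overlapped.

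The KNDy-like cluster was lowest for both variable forms, with 4 UMIs of Ndst3 and 7 of Ndst4 in 217 nuclei. Ndst1 there was at 32.5 (22.6 to 45.2) CPM and Ndst2 at 15.8 (9.20 to 25.3). Ndst4 therefore made up 11.1% of the Ndst UMIs of the KNDy-like cluster and 84.9% of those of cluster 10, while Ndst1 made up 55.6% and 3.11%. These are shares of UMIs, not corrected for gene length. The AGRP-like cluster was also low for Ndst3, at 14.3 (10.9 to 18.4) CPM, and for Ndst4, at 24.8 (20.3 to 30.05). In the VMH-like cluster they stood at 16.2 and 27.6 CPM.

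Glce, the epimerase that changes glucuronic to iduronic acid, was highest in SIM1-like cluster 18 at 125 CPM (101 to 154), 2.09-fold, though cluster 15 at 97.6 (79.3 to 119) overlapped it. Hs2st1, the only 2-O-sulfotransferase of heparan sulfate, was highest in the GHRH-like cluster at 410.4 (373 to 450.0) CPM and the POMC-like at 363 (335 to 393), 2.53- and 2.26-fold, and no cluster counted as lower. Its median was 142 CPM.

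The 6-O-sulfotransferases had different class patterns. Hs6st3 was at 982 CPM (925 to 1041) in cluster 16, led by Sim2 and Ebf1, and at 818 (779 to 858) in SIM1-like cluster 7, with a median of 339. It was lowest in SIM1-like cluster 18 at 50.9 (35.8 to 70.1) and in the AGRP-like cluster at 60.1 (52.9 to 68.0), whose intervals overlapped. Hs6st2 was highest in cluster 20 at 296 (253 to 345), the POMC-like cluster at 284 (259 to 311) and cluster 10 at 254 (227 to 283), which overlapped, and reached 199 (185 to 213) in the AGRP-like cluster. It was at or under 29.6 CPM in SIM1-like clusters 7, 18 and 19, in the dopaminergic-like and GHRH-like clusters and in cluster 15. The AGRP-like cluster was highest for Hs6st1, at 23.4 (18.97 to 28.5) CPM, 2.16-fold and overlapping cluster 3 at 17.1 (13.1 to 21.9), and the KNDy-like lowest, at 2.79 (0.575 to 8.14). Of the Hs6st UMIs, Hs6st2 made up 70.4% in the AGRP-like cluster and 3.44% in SIM1-like cluster 7, and Hs6st3 21.3% and 94.9%.

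The 3-O-sulfotransferases add the rarest sulfate of the chain, and all 4 with enough UMIs passed in at least 1 cluster. Hs3st5 was at 1703 CPM (1626 to 1782) in the KNDy-like cluster, 7.97-fold (7.56 to 8.38) that of the other neurons, and at 844 (805 to 884) in cluster 6, led by Ror2 and Tbx3os1, with a median of 167 CPM. A UMI of it was found in 205 of the 217 KNDy-like nuclei, with a median of 7 per nucleus, against 3023 of all 6776 neurons and 26 of 118 in SIM1-like cluster 19, whose median depth of 7134 UMIs was above the 4585 of the KNDy-like cluster. Thinned to 1000 UMIs, the shares in KNDy-like nuclei and in all neurons were 75.1% (68.8 to 80.7) and 17.9% (17.0 to 18.9). SIM1-like clusters 7, 18 and 19 and cluster 17 were lowest, at 46.6 to 68.7 CPM.

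Hs3st4 was also highest in the KNDy-like cluster, at 891 CPM (835 to 949), 5.02-fold, but not in cluster 6, where it was at 162 (145 to 180.1). It was at 628 (584 to 675) in cluster 12, led by Tmem26 and Pth2r, 497 (462 to 534) in the VMH-like cluster and 429 (408 to 449.7) in cluster 2, led by Meis2 and Pax6. At the low end, the POMC-like cluster, the dopaminergic-like cluster, cluster 16 and SIM1-like cluster 18 lay between 18.04 and 26.1 CPM. Hs3st4 and Hs3st5 thus shared the KNDy-like cluster, and both counted as lower in clusters 1, 5, 7, 9, 18 and 19. They parted in cluster 16, which held 423 (386 to 462) CPM of Hs3st5 and 20.8 (13.3 to 30.9) of Hs3st4. Hs3st1, best known for making the antithrombin site, was at 26.9 (18.04 to 38.7) CPM in the KNDy-like cluster, where under 10 UMIs were expected, and at 15.7 (12.2 to 20.02) in the AGRP-like cluster, 2.02-fold. Hs3st2 was at 20.5 (10.6 to 35.9) CPM in cluster 17 and 15.5 (9.83 to 23.3) in the VMH-like cluster, both with under 10 UMIs expected, 16.1 (10.98 to 22.7) in SIM1-like cluster 7 and 12.6 (9.30 to 16.6) in cluster 2, and at 0.715 (0.148 to 2.09) in the AGRP-like cluster.

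**Figure D4:**
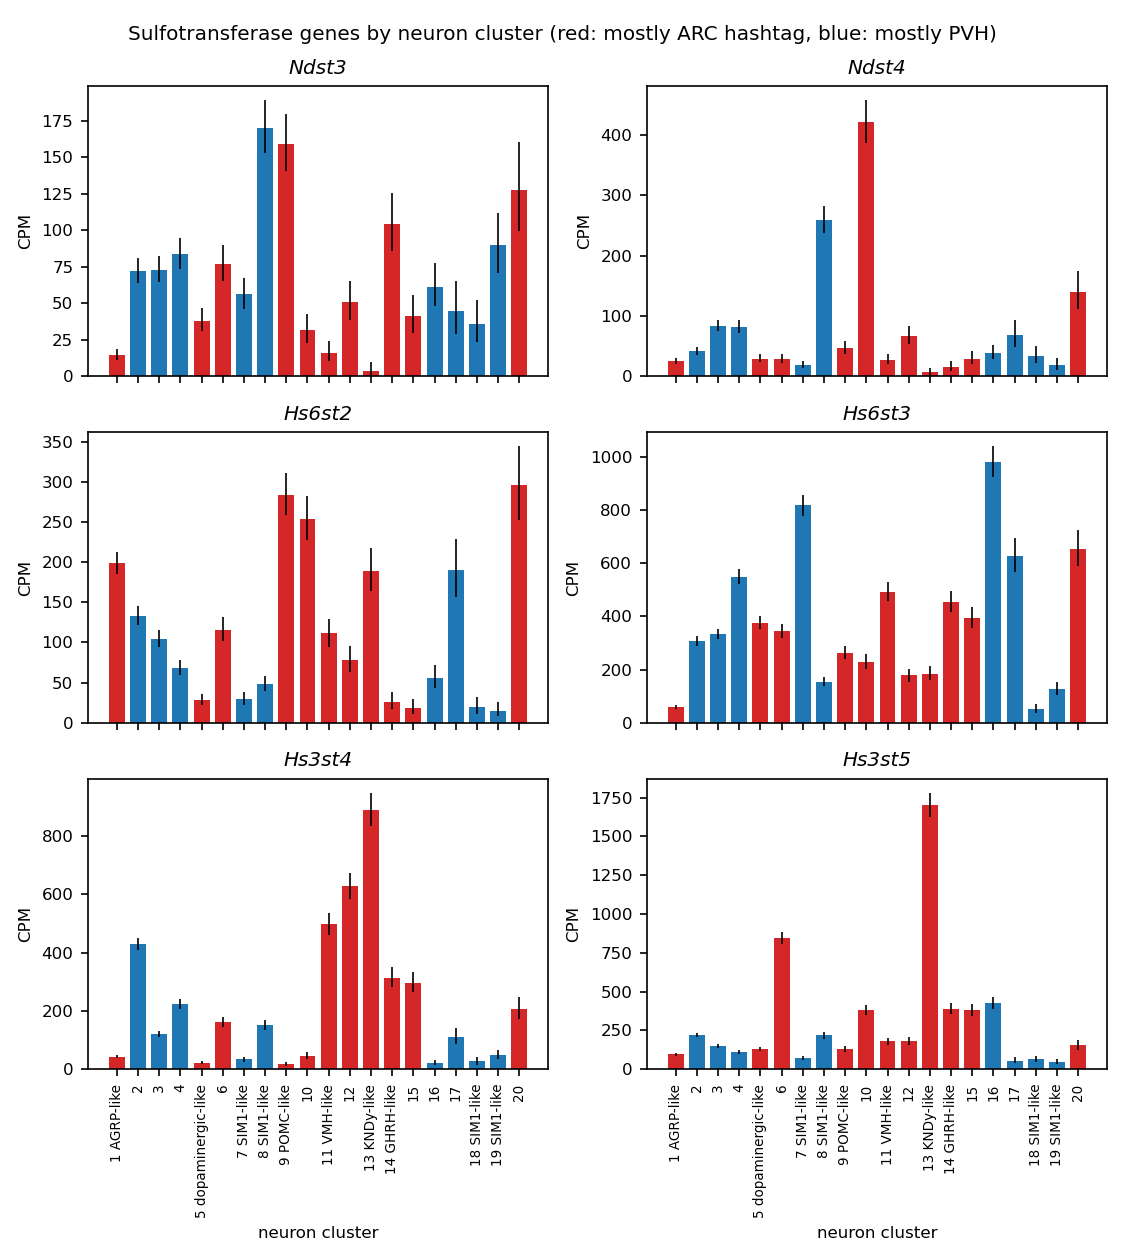
CPM of Ndst3, Ndst4, Hs6st2, Hs6st3, Hs3st4 and Hs3st5 in the 20 neuron clusters, with exact 95% Poisson intervals as bars and colour by the hashtag of most nuclei. The KNDy-like cluster has the highest Hs3st4 and Hs3st5 and the lowest Ndst3 and Ndst4, and the AGRP-like cluster lies above the median for Hs6st2 alone among the 6.

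Hs3st3a1 and Hs3st3b1, whose products make a site that herpes simplex virus glycoprotein D can bind, held 79 and 70 UMIs in all, under the 100 set for full values, and were singled out after their values were seen. They were nevertheless among the leading genes of SIM1-like cluster 8. Hs3st3a1 was there at 22.3 CPM (16.3 to 29.8) from 45 UMIs in 35 of 333 nuclei, and Hs3st3b1 at 24.3 CPM (17.96 to 32.1) from 49 UMIs in 37. The next clusters were at 2.75 (1.19 to 5.42) CPM for Hs3st3a1, in cluster 4, and 5.40 (2.33 to 10.6) for Hs3st3b1, in the VMH-like cluster, and SIM1-like clusters 7, 18 and 19 together held 1 UMI of the first and 0 of the second. Cluster 8 held 57.7% and 70.0% of their neuronal UMIs.

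The pair are neighbours on chromosome 11, at chr11:64435332-64522841 on the plus strand and chr11:63885792-63922290 on the minus strand, 513 kb apart with 1 protein-coding gene between them. Near-identical parts of the pair can share reads, so the split between them is uncertain. Their promoters are shown because the genes lie near each other and were high in the same cluster. Each is the 250 bases before the start in RefSeq (GRCm38.p6), at chr11:64435082-64435331 on the plus strand and chr11:63922285-63922534 on the minus strand, 5′ to 3′, with CCAAT or its reverse complement ATTGG in capitals, and they hold 20 and 17 CpG. CCAAT was found on either strand in 33.8% of all promoters of this length in the table and in 40.0% of the 45 entries of the 39 members that have one. TATAAA was in 12.4% and 6.67%, and in neither of these.
Hs3st3a1: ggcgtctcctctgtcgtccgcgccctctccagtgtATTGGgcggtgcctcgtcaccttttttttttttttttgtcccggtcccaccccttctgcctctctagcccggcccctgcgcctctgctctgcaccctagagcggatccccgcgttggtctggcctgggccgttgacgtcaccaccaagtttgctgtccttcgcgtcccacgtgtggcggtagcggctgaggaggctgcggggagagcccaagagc
Hs3st3b1: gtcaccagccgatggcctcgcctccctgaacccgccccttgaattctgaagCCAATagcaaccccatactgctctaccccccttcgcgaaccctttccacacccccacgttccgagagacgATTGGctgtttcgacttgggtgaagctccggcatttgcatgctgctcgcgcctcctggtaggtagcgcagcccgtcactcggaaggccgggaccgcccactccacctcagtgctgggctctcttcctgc

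Of the extracellular sulfatases, Sulf1 varied and Sulf2 varied less. Sulf1 was at 187 CPM (153 to 225) in cluster 17, 155 (132 to 181) in cluster 15, 135 (115 to 157) in cluster 12 and 130.2 (119 to 143) in cluster 3, and at 8.36 (3.82 to 15.9) and 8.25 (3.03 to 17.9) in the KNDy-like cluster and SIM1-like cluster 18. Sulf2 was between 13.7 and 60.3 CPM, with both ends in SIM1-like clusters.

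Among the chondroitin genes, Csgalnact1, which starts the chain, was highest in the feeding neurons of the AGRP-like cluster. It was at 360.3 CPM (342 to 379) in the AGRP-like cluster, 5.83-fold (5.44 to 6.23), where 595 of 773 nuclei held a UMI against 6 of 116 in cluster 20, and at 257 (235 to 280.1) in SIM1-like cluster 7. The median was 58.7 CPM, the lowest level 14.2 (6.13 to 28.0) in cluster 20, and 9 clusters counted as lower. Csgalnact2 passed in no cluster. Chst11, a chondroitin 4-O-sulfotransferase, was at 408 (371 to 448) CPM in the KNDy-like cluster and 365 (339 to 392) in cluster 6, which overlapped and were also the clusters that led for Hs3st5, and lowest in SIM1-like cluster 18 at 13.7 (6.59 to 25.3). Ust, which sulfates uronic acid in chondroitin and dermatan sulfate, was at 227 (198 to 258) CPM in cluster 15, led by Pirt, 6.16-fold, and at 139 (121 to 159) in the VMH-like cluster.

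Chst8 and Chst9 sulfate N-acetylgalactosamine on N-linked sugars, as found on pituitary hormones. Chst8 was high in several Sim1-rich clusters and in the VMH-like cluster, at 112 (94.0 to 134) CPM in cluster 16, 106 (85.4 to 129.6) and 103 (81.1 to 129) in SIM1-like clusters 19 and 18, all 3 overlapping, 81.6 (67.7 to 97.5) in the VMH-like cluster and 56.5 (46.6 to 67.9) in SIM1-like cluster 8. SIM1-like cluster 7 was at 30.1 (23.0 to 38.7), and 10 clusters counted as lower, down to 3.09 CPM in cluster 10. Chst9 was highest in the dopaminergic-like cluster at 39.4 (32.0 to 48.0) CPM, with 33.7 (20.3 to 52.6) in cluster 20, where under 10 UMIs were expected, 27.3 (20.5 to 35.5) in SIM1-like cluster 8 and 26.5 (20.9 to 33.1) in cluster 4. Chst1, Chst2, Chst10 and Chst12, which act on keratan sulfate, other N-acetylglucosamine, the HNK-1 sugar and chondroitin, were higher in no cluster, and Chst1 was lower in 1, SIM1-like cluster 19, at 17.1 CPM.

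Read by class, the AGRP-like cluster, the neurons that drive feeding, had 4 of 36 members higher and 12 lower, and 8.85% of all genes passed there in either direction. Higher were Gpc4, Hs6st1, Hs3st1 and Csgalnact1. Lower were Gpc3, Gpc6, Ndst3, Ndst4, Hs6st3, Hs3st2, Hs3st4, Hs3st5, Sulf1, Chst8, Chst9 and Ust, among them Hs6st3 at 6.49-fold and Gpc6 at 5.22-fold under the other neurons. The POMC-like cluster, the neurons that restrain feeding, had 3 higher (Ndst3, Hs2st1 and Hs6st2) and 7 lower, with 6.22% of all genes passing. Hs3st4 was low in both, at 42.4 and 18.04 CPM, while Ndst3 differed between them, at 14.3 (10.9 to 18.4) and 159 (141 to 179.7) CPM. Gpc5 was at 667 and 64.3 CPM and Csgalnact1 at 360.3 and 65.5, with no overlap of intervals in either case.

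The KNDy-like cluster, whose first marker Kiss1 rested on 3 UMIs while Tac2 was at 145 CPM, had 3 of 33 members higher (Hs3st4, Hs3st5 and Chst11) and 9 lower, with 9.72% of all genes passing. The GHRH-like cluster had 2 higher (Gpc4 and Hs2st1) and 7 lower of 33, with 8.1% of all genes. In the VMH-like cluster 3 of 35 were higher (Hs3st4, Chst8 and Ust) and 6 lower, with 6.22%. The dopaminergic-like cluster had 2 higher (Gpc5 and Chst9) and 9 lower of 36, with 6.1%, and its Hs3st4, at 21.5 (16.2 to 28.1) CPM, was 9.86-fold under the other neurons. Among the ARC nuclei of this cluster, the high Gpc5 was not that of the nuclei with the higher levels of the dopamine genes. With ARC nuclei clustered alone, 183 such nuclei held 35.2 CPM of Gpc5, and 131 others of the cluster 2424 CPM.

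No member was higher in all 4 SIM1-like clusters, while Gpc4, Hs6st2 and Ust were lower in all 4. Ndst4, Hs3st4, Hs3st5 and Chst11 were also lower in clusters 7, 18 and 19. Cluster 7 had Gpc5, Hs6st3, Hs3st2 and Csgalnact1 higher and 9 lower of 36, with 7.78% of all genes passing. Cluster 8 had Ndst3, Ndst4, Chst8 and Chst9 higher and 6 lower of 36, with 5.66%. Cluster 18, with Avp among its markers, had Glce and Chst8 higher and 14 lower of 31, and cluster 19, with Oxt, had Gpc3, Gpc5 and Chst8 higher and 10 lower of 33, with 11.8% of all genes passing in each. Snap25, a neuronal marker, was lowest of all neuron clusters in cluster 18, at 447 CPM, and its part in the many lower members there was not tested. Hs6st3 was at 818 CPM in cluster 7 and 155, 50.9 and 128 in clusters 8, 18 and 19. Gpc4 was low in all 4, at 4.55 to 7.02 CPM, as was Hs6st2, at 14.8 to 48.1. Cluster 16, rich in Sim1 but unnamed, had Hs6st3 and Chst8 higher and 6 lower of 35, with 5.62%.

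The unnamed clusters held some of the largest member levels. Cluster 10 had Gpc3, Gpc6, Ndst4 and Hs6st2 higher and 6 lower of 35, with 5.99% of all genes passing. Cluster 15 had Gpc3, Gpc6, Sulf1 and Ust higher and 6 lower of 33, with 4.58%, and cluster 20 had Gpc3, Ndst4 and Hs6st2 higher and 2 lower of 28, with 4.83%. Clusters 10, 15 and 20 thus shared high Gpc3, and cluster 20 lacked the high Gpc6 of the other two, at 271 (230.0 to 318) CPM. Cluster 6 had Hs3st5 and Chst11 higher and 9 lower of 36, with 6.54%, cluster 12 had Hs3st4 and Sulf1 higher and 5 lower of 35, with 4.89%, and cluster 3 had Sulf1 higher and Gpc5 and Csgalnact1 lower of 36, with 3.13%.

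Between the hashtags, 41 members had enough UMIs, set at 20 expected on the smaller side. Of these, 7 were at least 1.5-fold higher on the ARC hashtag, against 5.44% of 16178 genes, and 8 at least 1.5-fold higher on the PVH hashtag, against 5.82%. The median log2 ratio of ARC over PVH was 0.036 over these members and 0.045 over all genes. Gpc4 differed most towards ARC, at 46.0 CPM (43.1 to 49.1) against 12.4 CPM (10.7 to 14.2), a ratio of 3.72-fold (3.19 to 4.35). Hs3st5 was at 335 CPM (327 to 343) against 166 CPM (160.4 to 173), 2.01-fold (1.92 to 2.10). Chst11, Hs6st2, Hs3st1 and Csgalnact1 were higher on ARC by 1.95-, 1.88-, 1.69- and 1.67-fold. Hs2st1 lay at the threshold, at 1.503-fold (1.43 to 1.58), and Ust, just under it, at 1.38-fold (1.24 to 1.53).

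Towards the PVH hashtag, Hs3st2 was at 10.5 CPM (9.02 to 12.2) against 3.13 CPM (2.39 to 4.02), 3.36-fold (2.50 to 4.57) higher, and Chst8 at 41.2 CPM (38.2 to 44.4) against 15.9 CPM (14.2 to 17.8), 2.59-fold (2.26 to 2.97). Gpc5 was at 612 CPM (601 to 624) against 353 CPM (345 to 361), 1.74-fold (1.68 to 1.79). Ndst3 and Chst9 were just past the threshold, at 1.52-fold (1.40 to 1.65) and 1.51-fold (1.25 to 1.83), and Hs6st3 just under it, at 1.43-fold (1.38 to 1.48). The other 3 were under 100 UMIs and were singled out after their values were seen. Hs3st3a1 held 66 UMIs on the PVH and 13 on the ARC hashtag, Hs3st3b1 58 and 12, and Chst5 28 and 20, the last with a ratio interval of 0.886 to 3.05 that holds 1. The 4 chain elongation genes with over 100 UMIs, Ndst1, Ndst2, Glce, Hs6st1, Sdc2 and Sdc3 lay within 1.5-fold. In such sums, more nuclei of a class and more RNA per nucleus cannot be told apart.

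**Figure D5:**
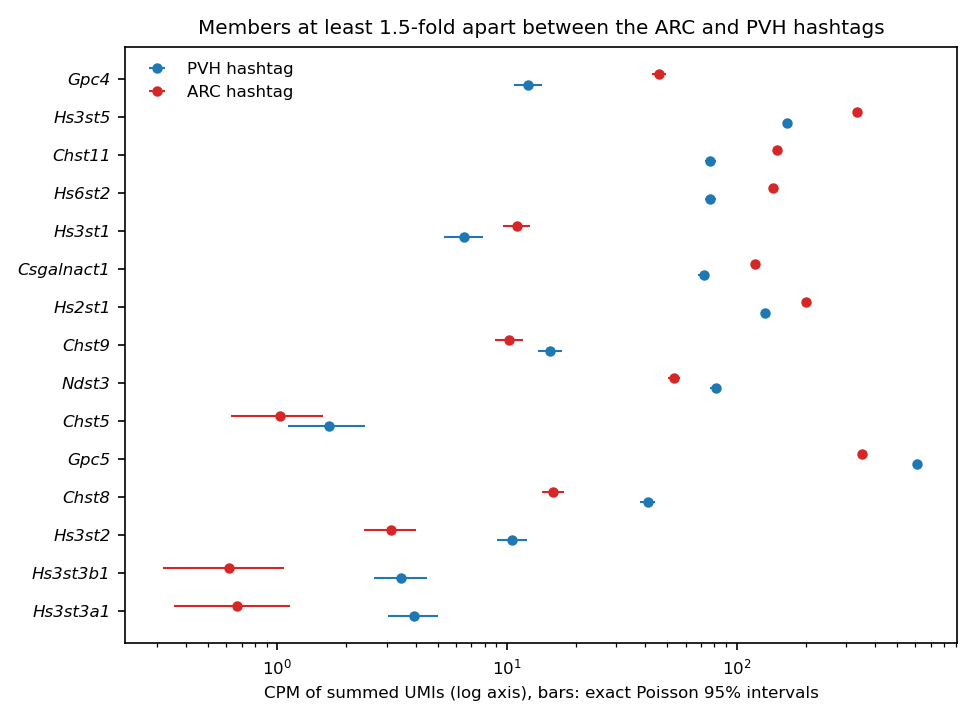
CPM of the 15 members at least 1.5-fold apart between the hashtags (log axis), red for ARC and blue for PVH, with exact 95% Poisson intervals as bars and genes ordered by ratio. Gpc4 at the top is at 46.0 against 12.4 CPM and Hs3st3a1 at the bottom at 0.667 against 3.94; the intervals overlap for Chst5 only.

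The sides hold different classes, and several of these differences did not reach 1.5-fold within the clusters that could be compared. In a comparison chosen after the data were seen, the sides were compared within the 4 neuron clusters that held at least 50 nuclei of each, at 1.5-fold and at least 10 expected UMIs. In cluster 3, 2 of 35 members were higher on ARC and 2 on PVH, with 5.05% and 6.62% of all genes. In the dopaminergic-like cluster 7 and 4 of 29 were, with 7.58% and 7.16%, and in the VMH-like cluster 4 and 1 of 23, with 7.32% and 5.87%. In cluster 4 they were 2 and 8 of 27, with 6.39% and 9.06%. Chst11, Hs6st2 and Hs2st1, higher on ARC over all nuclei, were under 1.5-fold in all 4 clusters, with Chst11 at up to 1.47-fold. The clusters in which these genes counted as higher among neurons were not among those compared. Hs3st5 passed in the VMH-like cluster alone, at 205 against 105 CPM, ARC against PVH. Gpc4 had enough UMIs in clusters 3 and 5, with ratios of 1.16 and 2.56, the latter from 29 and 6 UMIs. Of the 30 differences counted within these clusters, 21 had a ratio interval that did not hold 1. Chst9, higher on PVH over all nuclei, was higher on ARC in clusters 3 and 4, with ratios of 2.28 and 2.04, and on PVH in cluster 5, at 0.611. Gpc5 was 1.07-, 1.17- and 1.01-fold in clusters 3, 5 and 11.

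Cluster 4, led by Lhx9 and Kitl and rich in Sim1 and Slc17a6, had the most members higher on PVH. In it, on the ARC against the PVH hashtag, Ndst3 was at 27.5 against 97.9 CPM, Chst8 at 17.2 against 58.4 CPM and Gpc5 at 218 against 469.9 CPM. Gpc6 was at 257 against 543 CPM and Csgalnact1 at 101 against 40.4 CPM. Other differences within a class, in the same order, were Hs6st3 in the dopaminergic-like cluster, at 457 against 225 CPM, and Ust in the VMH-like cluster, at 164 against 68.9 CPM. The nuclei of 1 cluster on both sides need not be the same subtype.

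Neurons were also grouped by transmitter, as 12 clusters with more Slc17a6, the vesicular glutamate transporter (3132 nuclei), and 8 with more Slc32a1, the vesicular GABA transporter (3644 nuclei). Of 41 members, 7 were at least 1.5-fold higher in the Slc17a6-rich clusters, against 4.69% of all genes, and 3 lower, against 3.84%. Fewer were higher when single nuclei were sorted by their own UMIs, as given at the end. Chst8 differed most among those with 100 UMIs, at 47.8 against 8.39 CPM, 5.70-fold (4.798 to 6.80), and was higher on the ARC hashtag alone (4.18-fold) and on the PVH hashtag alone (5.76-fold). Hs6st3 was at 446 against 266 CPM, 1.55- and 1.64-fold on the single hashtags. Hs3st5 and Ndst3 passed at 1.71-fold (1.64 to 1.78) and 1.63-fold (1.503 to 1.77), and Hs3st3a1, Hs3st3b1 and Chst5 on under 100 UMIs each. Lower in the Slc17a6-rich clusters were Gpc4, at 12.3 against 47.0 CPM, Gpc3 and Csgalnact1. Gpc4 was 3.18-fold higher in the Slc32a1-rich clusters on the ARC hashtag and 3.19-fold on the PVH hashtag.

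Other members changed direction with the hashtag. On the ARC hashtag alone 8 of 36 members were higher and 6 lower in Slc17a6-rich clusters, with 4.67% and 5.06% of all genes, and on the PVH hashtag alone 7 of 38 were higher and 5 lower, with 5.57% and 4.29%. Gpc5 was at 194 CPM in Slc17a6-rich and 440.1 in Slc32a1-rich nuclei with the ARC hashtag, and at 855 and 276 with the PVH hashtag. Hs3st4 turned the other way, at 278 and 162 CPM on ARC and 131 and 269 on PVH. Hs3st5, 2.78-fold on ARC, was 0.852-fold on PVH. In cluster 6, where Hs3st5 is high, Slc17a6 and Slc32a1 stood at 41.5 and 37.2 CPM with overlapping intervals, so its place among the Slc17a6-rich clusters is not settled. Without it the log2 ratio of Hs3st5 was 0.43 in place of 0.77, under the threshold, and at a clustering resolution of 1.2 it was 0.20.

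The rest of the pathway was compared between the sides in the same way. Of 48 other proteoglycan genes from a fixed list, 42 had enough UMIs, 3 were higher on ARC and 0 on PVH by the same fold rule, which is no test, against 5.44% and 5.82% of all genes. These 3 were Ptprz1, a receptor phosphatase that carries chondroitin sulfate, at 259 against 168 CPM, Hpse2, an inactive relative of heparanase, at 8.62 against 5.38, and Has2, a hyaluronan synthase, at 3.23 against 0.777 from 76 UMIs. None of the 6 linker genes and 6 sulfate donor genes passed between sides. By cluster, 40 had enough UMIs, 11 were higher and 15 lower in at least 1, against 15.9% and 30.5% of all genes.

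No sulfate donor gene (Papss1, Papss2, Slc35b2, Slc35b3, Bpnt1 and Impad1) passed in a cluster in either direction. Xylt1 and Xylt2, which start the linker on the core protein, were higher only in SIM1-like cluster 19, at 314 and 40.9 CPM, 2.39- and 2.76-fold. Col18a1, a collagen with heparan sulfate chains, was at 64.9 CPM in cluster 16, 53.3 in cluster 10 and 40.2 in cluster 4. Tgfbr3, also called betaglycan, was at 131 CPM in the VMH-like cluster, 2.23-fold. Nrxn3, a presynaptic neurexin that can carry heparan sulfate, was lower in 7 clusters, among them SIM1-like clusters 8, 18 and 19 at 871, 236 and 931 CPM and the KNDy-like cluster at 454. Lrrtm4, a postsynaptic partner of heparan sulfate chains, was at 4524 CPM in SIM1-like cluster 18, 2.48-fold, and at 428 in the KNDy-like cluster.

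Of the chondroitin genes of this list, Chsy3, a chondroitin polymerase, was at 257 CPM in cluster 6, 2.35-fold, and at 15.0 in cluster 12 and 22.7 in the AGRP-like cluster. Vcan, the matrix proteoglycan versican, was 4.09-fold higher in SIM1-like cluster 8, 3.28-fold in the KNDy-like cluster and 2.19-fold in the VMH-like cluster, and stood at 40.9 CPM in SIM1-like cluster 19, where under 10 UMIs were expected. Ptprz1 was at 597 CPM in cluster 17 and 441 in cluster 10, against 26.2 in SIM1-like cluster 19. Dse, an epimerase that forms dermatan sulfate, was 2.82-fold higher in cluster 10, Tnr, the matrix protein tenascin R, 2.30-fold in cluster 20 and Hpse2 2.31-fold in the POMC-like cluster. Hpse2 was at 25.0 CPM in cluster 12 and 15.8 in the KNDy-like cluster, and Dse at 31.9 in cluster 20, each with under 10 UMIs expected. Besides Nrxn3, genes counted as lower and in no cluster as higher were Dsel and Bcan, the latter at 1.43 CPM in the AGRP-like cluster, and the partners Ptprd and Lrrtm3. Bcan was at 14.5 CPM in cluster 6 and 15.6 in cluster 16, each with under 10 UMIs expected.

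The remaining 14 members held under 100 UMIs over both sides. They were Gpc2 (21 UMIs), Sdc1 (9), Sdc4 (16), Extl1 (58), Hs3st3a1, Hs3st3b1, Hs3st6 (4), Chst3 (29), Chst4 (2), Chst5 (48), Chst7 (53), Chst14 (8) and Chst13 and Chst15 with 0. For Chst13 and Chst15, a limit of 3 counts on the UMIs of a side puts the level at up to 0.154 CPM on ARC and 0.179 on PVH, and a level under that was not detectable at this depth.

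The 65 non-neuronal nuclei are too few for more than a description. In cluster 21, with astrocyte and tanycyte markers (36 nuclei), Gpc5 was at 2579.5 CPM (2276 to 2913) and Sdc4, named here after its value was seen and with 12 UMIs in all neurons together, at 39.7 (10.8 to 102) CPM from 4 UMIs. In cluster 22, with oligodendrocyte and precursor markers (29 nuclei), Ust was at 500.1 CPM (396 to 623), Sulf2 at 152 (97.3 to 226) and Chst8 at 146 (92.3 to 218). With these nuclei left out, the counts of members higher on ARC and on PVH were again 7 and 8.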

How the data were processed

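Nuclei were hashed, then sorted, and sequenced as 1 pooled library by the authors. The deposited files hold raw counts, as UMI counts per gene and nucleus for 32285 genes and 2 hashtags, made with Cell Ranger (5.0 per the submitters' notes, 4.0.0 per the file header) against mm10. The sources do not say whether intronic reads were counted, which would weigh on long genes. The authors' filters were applied (over 800 and under 5000 genes, up to 12000 counts and 1% mitochondrial counts, genes in at least 3 nuclei), leaving 10170 of 11409 nuclei and 23143 genes. HTODemux at a quantile of 0.8 (Seurat 5.3.0, R 4.3.3) gave 6841 singlets, 944 doublets and 2385 unassigned nuclei. Doublets were removed by hashtag only. Singlets were clustered by the Leiden algorithm at 0.55 (leidenbase 0.1.32) from 2000 variable genes without members, 30 components and 20 neighbours.

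UMIs were summed per group with Python 3.11.15 and scipy 1.17.1. CPM have exact Poisson intervals, ratios and shares have exact binomial intervals, all at 95%, and they cover counting error only. With 1 library there was no test. Fold thresholds were 2 for clusters and 1.5 for sides and transmitter groups, and the background is the same rule over all genes. Classes were named where the first of the fixed markers, and 3 or more in all, reached 1.5-fold with 3 UMIs each. Members with at least 100 UMIs are given in full, and others by their totals. The rule for members reads symbols only, but the gene set, the lists and the thresholds were chosen with earlier results of these data known. The steps were tested on simulated counts. Alternatives are given at the end.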

Additional observations from a re-analysis of the deposited data

Results flagged for a closer look

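For 4 members the difference between Slc17a6-rich and Slc32a1-rich clusters pointed in opposite directions on the hashtags, past 1.5-fold on each. The log2 ratio on the ARC hashtag minus that on the PVH hashtag was -2.81 for Gpc5, -1.63 for Ndst4, 1.83 for Hs3st4 and -2.84 for Csgalnact1. Csgalnact1 was at 51.6 CPM in Slc17a6-rich and 160.0 in Slc32a1-rich nuclei with the ARC hashtag, and at 94.5 and 40.8 with the PVH hashtag. Ndst4 was at 40.1 and 77.4, then 92.5 and 57.6. The sides hold different neuron clusters, each side is 1 preparation, and the difference was not tested.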

How the results depend on the processing

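No paired analysis was possible because the series holds 1 pooled library with no replicates, and the intervals take no account of variation between mice. Of the count summaries, 58 stayed within 1.5 times the reported count under the alternatives tried and 15 did not. Between the hashtags, 3 members instead of 8 were higher on PVH at a positive quantile of 0.99, which keeps only 1229 ARC and 407 PVH nuclei, and also after thinning each nucleus to 1000 UMIs, where fewer genes reach the needed UMIs. A fold of 2 left 2 members higher on ARC and 4 on PVH. Of the other proteoglycan genes, 1 was higher on ARC and 3 on PVH at the quantile of 0.99, 1 was higher on PVH after thinning, and 1 on ARC at a fold of 2. A fold of 3 left 12 members higher in a cluster. In the transmitter comparison, members lower in Slc17a6-rich clusters numbered 5 when ARC nuclei were clustered alone, 6 on the ARC hashtag only and 5 on the PVH hashtag only. Sorting single nuclei by their own UMIs (1337 and 988 nuclei) left 1 higher, and a fold of 2 left 4 higher and 1 lower. Without cluster 6, left out after its values were seen, 6 were higher and 3 lower.

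Of single values by cluster, 1224 moved by less than their interval, 132 by more, and 4 reversed. The log2 fold of Hs3st1 in cluster 4 was 0.0040 with members among the variable genes, that of Ust in cluster 12 was 1.53 at a resolution of 0.3, that of Chst9 in cluster 8 was -1.02 at a resolution of 1.2, and that of Gpc5 in the dopaminergic-like cluster was -3.40 with ARC nuclei clustered alone, where the cluster divides. Of the log2 ratios between hashtags 187 moved by less than their interval and 29 by more, and none reversed. In the transmitter comparison 259 and 135 did, and on the PVH hashtag only Csgalnact1 reversed to 1.21 and Hs3st5 to -0.23. Where no construction shows it, the cause was not tested.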
